A study of Homo sapiens with 12 samples.

Results

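The genes of cholesterol and fatty acid synthesis were followed across the RNA sequencing libraries of a human kidney cell line. The set held 31 genes, listed by their function in the pathway at a time when earlier results of these data were known, of the 62703 Ensembl gene identifiers in the data. All 31 were matched to 1 identifier each, and all 31 passed the minimum level for testing. By role, the set held 18 enzymes of the sterol pathway from acetyl-CoA to cholesterol, 5 regulators (SREBF1, SREBF2, SCAP, INSIG1 and INSIG2), the sterol carrier STARD4, and 7 enzymes that make or modify fatty acids.

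Cells make cholesterol from acetyl-CoA through mevalonate, squalene and lanosterol, and make fatty acids from the same acetyl-CoA by way of malonyl-CoA. The genes of both branches share a control. The SREBP transcription factors, encoded by SREBF1 and SREBF2, are held in the endoplasmic reticulum by the escort protein SCAP and the INSIG proteins as long as sterols are plentiful, and are released to the nucleus when sterols run low. INSIG1 is itself a target of SREBP, so that its RNA is commonly read as a gauge of the pathway, whereas INSIG2 is not under the same control. In the proximal tubule, lipid accumulation is known from diabetic kidney disease, and the SREBP pathway has been studied in that setting.

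The libraries came from HK2 cells, an immortalised line derived from human proximal tubule, in 4 groups of 3. NG cells had 5.5 mM glucose and a control vector, HG cells had 50 mM glucose, si-FGF9 cells had 5.5 mM glucose and an siRNA against FGF9 (a fibroblast growth factor), and HG+OE-FGF9 cells had 50 mM glucose and a lentiviral vector carrying FGF9. All groups shared DMEM/F-12 medium with fetal bovine serum. The paper's text also describes the NG medium as one with mannitol and the vector as an adenovirus. The paper names a lipofection reagent for the control vector, the FGF9 vector and the siRNA alike, and no vector is described for the HG group. A non-targeting siRNA is not described. The presence of an siRNA as such therefore cannot be told apart from the knockdown in si-FGF9 versus NG. With no vector described for HG, a vector and its transfection cannot be told apart from FGF9 in HG+OE-FGF9 versus HG. They cannot be told apart from glucose in HG versus NG either. The labels do not say whether the 3 libraries of a group came from separate cultures, so that p-values measure the spread between these libraries, which may be technical. The values were TPM (read counts divided by transcript length and then scaled to the same total in each library), sequencing depth is unknown, and the genes at 1 TPM or more numbered 13795 to 13949 in NG, 12350 to 13111 in HG, 11549 to 12013 in si-FGF9 and 13008 to 13236 in HG+OE-FGF9, fewer in every other library than in NG, and the part of this in the results was not tested. FGF9 was listed at 0 in all 9 NG, HG and si-FGF9 libraries and at 3.34, 4.03 and 3.82 TPM in HG+OE-FGF9, so that the overexpression label was borne out and the knockdown label could not be checked. Of 10 markers listed as renal epithelial, VIM among them, 8 were at 1 TPM or more in every library. CDH1 was at most 0.28 TPM. Of 10 markers of the mature proximal tubule, 7 were under 1 TPM in every library, among them LRP2, CUBN and SLC34A1. The 4 endothelial and the 4 adipocyte and liver markers were all under 1 TPM in every library, and of 5 fibroblast markers only COL1A1 was above it. Of 4 leukocyte markers, PTPRC and CD3E were under 1 TPM throughout, and the list, nearly all of it CD68, summed to 108.05 to 136.72 TPM in NG, HG and si-FGF9 and to 158.68 to 160.78 in HG+OE-FGF9. The epithelial list summed to 3862.41 to 4437.5 TPM in NG, 2956.65 to 3378.58 in HG, 2596.85 to 2902.08 in si-FGF9 and 2294.21 to 2722.27 in HG+OE-FGF9. VIM, also a mesenchymal marker, was the largest part of that sum, with means of 2656, 1825, 1477 and 1238 TPM in the same order. EPCAM, CDH2 and PAX8 also had lower means outside NG. In contrast, KRT18 was at 231.4, 318, 285.6 and 342.9 TPM, and KRT8 at 549, 553.4, 459.2 and 502.3. The sum thus does not stand for each marker in it, nor for epithelial markers alone. The proximal tubule list summed to 73.5 to 86.15 TPM in NG, 99.41 to 140.7 in HG, 176.59 to 197.02 in si-FGF9 and 84.54 to 92.95 in HG+OE-FGF9, and the fibroblast list to 4.42 to 8.48 in NG and at most 2.88 elsewhere. Nearly all of the proximal tubule sum was GGT1. The part of these lists in the results was not tested.

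Sequences upstream of 8 members are printed because these members carry the results that follow. HMGCS1 and STARD4 were lower in HG and si-FGF9, PMVK and EBP were higher, SCD and INSIG2 were lower in the overexpression group than in HG, and INSIG1 and SREBF2 belong to the control of the pathway. Each is the 250 bases before the transcription start in RefSeq on GRCh38.p14, read 5′ to 3′ on the strand of the gene. Capitals mark each CCAAT, on either strand (read as ATTGG on the other strand), which is the box that NF-Y binds, and each match of TCACNCCAC, which resembles a sterol regulatory element. The windows were HMGCS1 at chr5:43313413-43313662 on the minus strand, STARD4 at chr5:111512536-111512785 on the minus strand, PMVK at chr1:154936720-154936969 on the minus strand, EBP at chrX:48521558-48521807 on the plus strand, INSIG1 at chr7:155297628-155297877 on the plus strand, INSIG2 at chr2:118088221-118088470 on the plus strand, SREBF2 at chr22:41832855-41833104 on the plus strand and SCD at chr10:100346983-100347232 on the plus strand.
HMGCS1: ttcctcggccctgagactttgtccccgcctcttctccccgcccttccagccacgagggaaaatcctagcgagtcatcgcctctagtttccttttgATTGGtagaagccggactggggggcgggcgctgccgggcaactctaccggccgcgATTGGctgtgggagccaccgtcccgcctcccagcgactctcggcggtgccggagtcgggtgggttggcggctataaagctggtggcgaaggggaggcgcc
STARD4: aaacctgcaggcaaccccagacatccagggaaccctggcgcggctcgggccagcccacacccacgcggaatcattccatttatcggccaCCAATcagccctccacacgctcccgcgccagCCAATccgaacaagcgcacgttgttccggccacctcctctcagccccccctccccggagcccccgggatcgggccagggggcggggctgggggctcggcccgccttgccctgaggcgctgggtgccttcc
PMVK: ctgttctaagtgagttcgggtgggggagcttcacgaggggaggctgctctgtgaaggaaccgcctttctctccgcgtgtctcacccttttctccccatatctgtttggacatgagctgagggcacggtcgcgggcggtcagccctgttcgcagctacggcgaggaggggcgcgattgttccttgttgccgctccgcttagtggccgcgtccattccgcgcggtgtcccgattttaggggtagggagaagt
EBP: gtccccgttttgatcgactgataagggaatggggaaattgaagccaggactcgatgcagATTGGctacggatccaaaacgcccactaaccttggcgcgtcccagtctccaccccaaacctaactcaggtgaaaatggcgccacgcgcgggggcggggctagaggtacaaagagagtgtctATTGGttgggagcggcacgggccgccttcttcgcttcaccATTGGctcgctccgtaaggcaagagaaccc
INSIG1: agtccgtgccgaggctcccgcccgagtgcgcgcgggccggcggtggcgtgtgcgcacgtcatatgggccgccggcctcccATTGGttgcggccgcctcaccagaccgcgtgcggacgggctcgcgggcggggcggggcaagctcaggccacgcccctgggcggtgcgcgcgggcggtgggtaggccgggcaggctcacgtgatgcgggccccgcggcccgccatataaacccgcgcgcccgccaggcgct
INSIG2: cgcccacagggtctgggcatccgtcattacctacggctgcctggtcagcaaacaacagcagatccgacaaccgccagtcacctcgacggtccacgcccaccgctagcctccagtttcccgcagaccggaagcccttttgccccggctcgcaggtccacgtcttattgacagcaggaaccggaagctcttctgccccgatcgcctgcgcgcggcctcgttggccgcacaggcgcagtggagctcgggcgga
SREBF2: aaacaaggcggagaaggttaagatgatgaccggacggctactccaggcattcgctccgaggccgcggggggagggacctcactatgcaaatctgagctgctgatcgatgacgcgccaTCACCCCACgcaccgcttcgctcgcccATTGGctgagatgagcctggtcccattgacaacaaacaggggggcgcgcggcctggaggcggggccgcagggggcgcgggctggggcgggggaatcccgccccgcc
SCD: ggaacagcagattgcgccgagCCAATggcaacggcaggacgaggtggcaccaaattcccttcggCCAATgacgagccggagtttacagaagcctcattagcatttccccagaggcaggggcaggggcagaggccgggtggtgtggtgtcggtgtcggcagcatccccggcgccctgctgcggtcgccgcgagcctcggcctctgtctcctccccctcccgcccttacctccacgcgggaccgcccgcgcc
The printed stretches hold 2 CCAAT boxes for HMGCS1, 2 for STARD4, 3 for EBP, 1 for INSIG1, 1 for SREBF2 and 2 for SCD. Those of PMVK and INSIG2 hold 0.

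RefSeq gave promoter windows, from 250 bases before to 50 after each start, for 27 of the 31 members, 37 windows in all. ACAT2, FDFT1, SQLE and FASN had none in the table. A CCAAT box on either strand was present in 20 of the 27 members (74.1%), against 39.7% of all 27305 genes with a window and 43.3% of the 10454 such genes that were tested. The GC box GGGCGG was present in 26 of 27 members (96.3%), against 77.2% of the tested genes. The E-box CACGTG was found in LSS, SC5D, SCAP and INSIG1 (14.8%, against 12.8% of the tested genes). TCACNCCAC was found in SREBF2 alone, as TCACCCCAC starting 133 bases before the start (3.7% of members, 1.38% of the tested genes). In IDI1 and in NSDHL a pair of CCAAT matches on opposite strands overlapped. A match is a description of the letters in these windows. A missing match of TCACNCCAC does not mean that a gene lacks a sterol element, since only that string and these windows were searched.

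**Figure D1:**
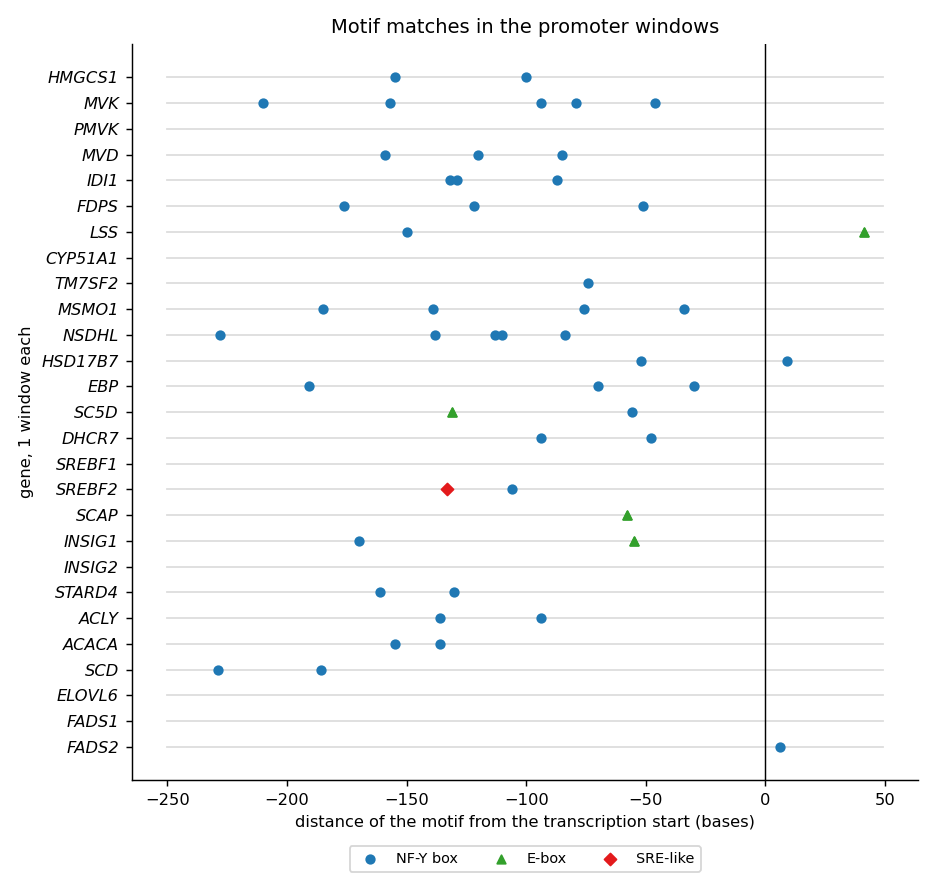
Each row is 1 promoter window of 1 of the 27 members with a window (that with the most CCAAT boxes where several exist), and the x axis gives the distance of a motif's first base from the transcription start, in bases. Circles are CCAAT boxes, triangles E-boxes and the diamond the sterol element-like match of SREBF2, and 20 of 27 rows hold a circle.

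Genes were tested with limma on log2(TPM + 1), a scale on which the changes of low genes come out too small. A gene was called higher or lower where its log2 fold change was at least 1 in size and its unadjusted p was under 0.01, the thresholds of the study, and Benjamini-Hochberg adjusted p over all 14639 genes tested are given beside single values. For 1 gene, 3 libraries a group allow an exact permutation p (two-sided) of 0.1 at the least. Several features of the libraries move with these genes. First, the log2 fold changes of all genes had a median below 0, at -0.39 for HG and -0.79 for si-FGF9, both against NG, and at -0.13 for HG+OE-FGF9 against HG. After scaling by the median of ratios it was 0.00, -0.01 and -0.03. Second, the size of a change went with the GC content of the transcript. Members spanned 34.2% GC (STARD4) to 65.3% (FASN). The Spearman correlation of GC content and log2 fold change was 0.82 over the 31 members for HG and 0.78 for si-FGF9, both against NG, and 0.5 for HG+OE-FGF9 against HG, and 0.64, 0.57 and 0.29 over the 14191 tested genes with a GC value. Members share the 12 libraries, so that these are descriptions. Between HG and NG, 7 of the 9 members under 45% GC were called lower and 0 of the 12 members at 55% or more. In si-FGF9 versus NG the counts were 9 of 9 and 2 of 12, the 2 being SREBF1 and FASN. Last, the HG libraries were not alike. Of the 3, HG replicate 3 lay nearest to the NG mean for 17 of 31 members (54.8%), and for 58.7% of all genes tested. Within a group, the median SD of the members on the log2(TPM + 1) scale was 0.11 for NG and 0.32 for HG, and it was 0.20 for si-FGF9 and 0.29 for HG+OE-FGF9, and the widest in HG was that of INSIG1, at 1.56. HG+OE-FGF9 replicate 3 in turn lay nearest to NG for 27 of 31 members (87.1%) and for 71.5% of all genes. The part of GC content and of single libraries in the results was not tested beyond the corrected and reduced fits given below. Removal of the GC trend also shifts genes that were not detected. FGF9, at 0 TPM in NG, HG and si-FGF9, came out at 1.09 in HG and 1.63 in si-FGF9, both against NG and called higher. GC-corrected values of genes near 0 TPM are therefore no measure of a change. The GC-corrected shares of all genes called higher include such a gene.

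**Figure D2:**
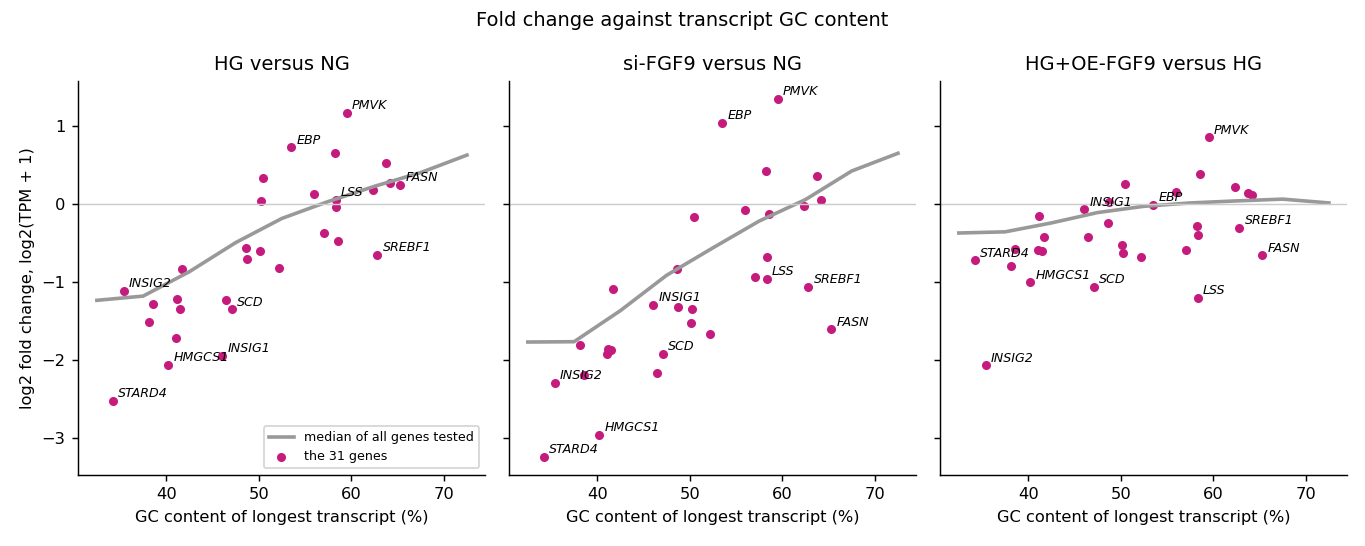
Each point is 1 of the 31 members, with the GC content of its longest transcript in percent on the x axis and its log2 fold change on log2(TPM + 1) on the y axis, for 3 comparisons. The grey line is the median of all genes tested in bins of 5 percentage points, and it rises from -1.24 to 0.63 in HG versus NG and from -1.77 to 0.65 in si-FGF9 versus NG, with STARD4 and HMGCS1 below it and PMVK and EBP above it in both.

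HG was compared with NG. Glucose cannot be told apart here from the control vector, which is described for NG and not for HG. Whether the NG medium held mannitol is also unclear. In HG versus NG, 10 of the 31 members were called lower and 1 higher, beside 22.7% and 1.65% of all genes tested. The members that fell were HMGCS1, IDI1, SQLE, CYP51A1, MSMO1 and SC5D of the sterol enzymes, INSIG1 and INSIG2 of the regulators, STARD4, and the desaturase SCD, and PMVK rose. The members' median log2 fold change was -0.61, below that of all genes. The groups did not overlap, with HG lower, for 17 members and, with HG higher, for 3, beside 46.5% and 10.7% of all genes. After removal of the GC trend 2 members were lower (HMGCS1 and STARD4) and 1 higher (PMVK), beside 3.06% and 3.78% of all genes, and the median was -0.19. After median-of-ratios scaling 4 were lower (HMGCS1, IDI1, MSMO1 and STARD4) and 4 higher (MVK, PMVK, MVD and EBP), beside 8.55% and 7.29%. Without HG replicate 3 the counts were again 10 and 1, with HSD17B7 called lower and INSIG2 not, and without HG replicate 2 they were 7 and 0. In bulk RNA, fewer cells of a kind and less RNA per cell cannot be told apart.

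The knockdown of FGF9 was compared with NG at the same glucose. In si-FGF9 versus NG, 17 members were called lower and 2 higher, beside 42.2% and 5.36% of all genes tested. The lower members were 8 sterol enzymes (ACAT2, HMGCS1, IDI1, SQLE, CYP51A1, MSMO1, HSD17B7 and SC5D), SREBF1, INSIG2, STARD4 and 6 of the 7 fatty acid enzymes (ACLY, ACACA, FASN, SCD, ELOVL6 and FADS1). PMVK and EBP were the 2 that rose. The median log2 fold change of the members was -1.29. The groups did not overlap for 22 members with si-FGF9 lower and 3 with si-FGF9 higher, beside 62.1% and 14.3% of all genes. With the GC trend removed, 7 were lower (HMGCS1, SQLE, SREBF1, STARD4, ACLY, FASN and SCD) and 2 higher (PMVK and EBP), beside 12% and 12.3% of all genes, and the median was -0.44. Under median-of-ratios scaling 5 were lower (HMGCS1, SQLE, SC5D, INSIG2 and STARD4) and 4 higher, beside 17.9% and 19%. The NG libraries are shared with the comparison above, so that the values of both comparisons depend on the same controls.

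HG+OE-FGF9 was compared with HG at the same high glucose, where the vector as such cannot be told apart from FGF9. In HG+OE-FGF9 versus HG, 3 members were called lower (LSS, INSIG2 and SCD) and 0 higher, beside 2.67% and 2.94% of all genes tested. At an unadjusted limma p under 0.05, with no limit on the fold change, 11 members were lower and 1 (PMVK) was higher, beside 16.9% and 11.3% of all genes. The members' median log2 fold change was -0.42. The groups did not overlap for 5 members with HG+OE-FGF9 lower and 2 with it higher, beside 9.95% and 12.2% of all genes. The same 3 members were called lower with the GC trend removed, beside 2.18% of all genes, and LSS and INSIG2 under median-of-ratios scaling, beside 1.94%, both with 0 members higher, beside 3.03% and 3.47%. Without HG replicate 2, 6 members were lower (HMGCS1, LSS, MSMO1, INSIG2, STARD4 and SCD) and PMVK was higher. Without HG replicate 3 the count was 3 lower and 0 higher, with the same members as in all libraries.

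**Figure D3:**
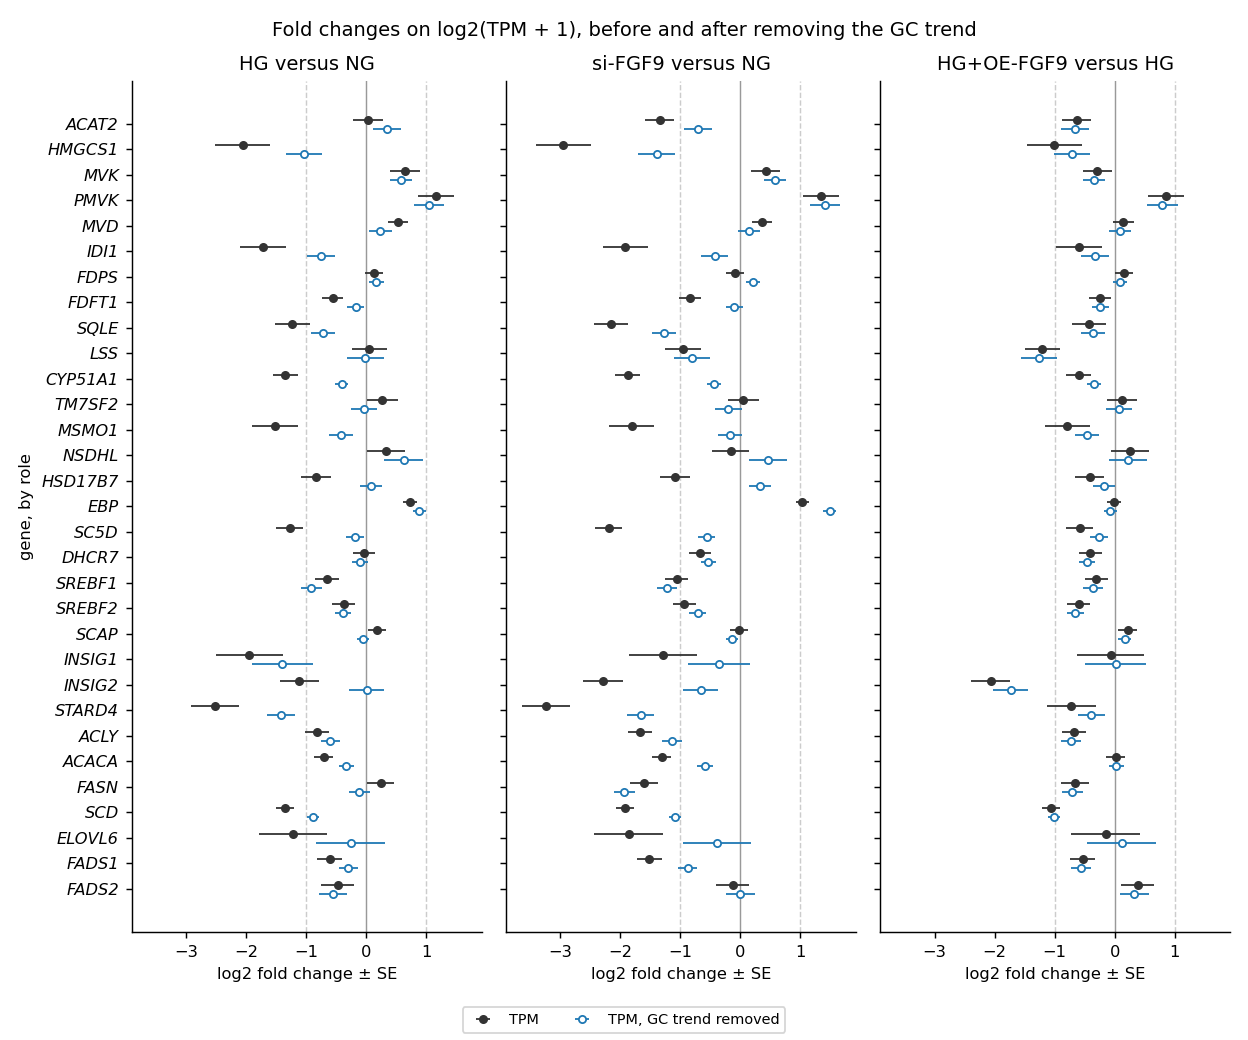
Each row is 1 of the 31 members in order of role, and the x axis is the log2 fold change on log2(TPM + 1), with bars of 1 SE, in 3 comparisons. Filled points are from TPM and open points after the GC trend was removed, and the open points of the AT-rich members such as STARD4, HMGCS1 and SC5D lie nearer to 0 than the filled ones in HG versus NG.

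Among the sterol enzymes, the first steps split. HMGCS1, the synthase that makes the precursor of mevalonate, had the largest fall of any enzyme on log2(TPM + 1) in both comparisons with NG. FASN was the exception, falling further in si-FGF9 with the GC trend removed. By mean TPM, ELOVL6 fell further, 4.33-fold in HG and 12.2-fold in si-FGF9, beside 3.57 and 9.14 for HMGCS1. HMGCS1 read 39.56, 39.46 and 38.96 TPM under NG, 6.78, 4.02 and 22.23 under HG, 4.47, 5.48 and 2.96 under si-FGF9 and 2.8, 2.98 and 6.42 under HG+OE-FGF9. The NG libraries lay between 38.96 and 39.56, HG replicate 3 stood at 4.12 times the mean of the other HG libraries, and every HG, si-FGF9 and HG+OE-FGF9 library was below every NG library. The log2 fold change was -2.06 ± 0.46 (SE, adjusted p = 0.0038) in HG and -2.96 ± 0.46 (adjusted p = 0.000118) in si-FGF9, both against NG, and -1.03 and -1.40 with the GC trend removed. For PMVK the NG libraries gave 5.77, 5.72 and 6.36 TPM, those of HG 18.88, 21.26 and 7.58, those of si-FGF9 16.92, 15.14 and 17.95 and those of HG+OE-FGF9 32.1, 28.83 and 21.61. PMVK, the kinase of phosphomevalonate, went the other way in every group, with HG replicate 3 the closest to NG. Its log2 fold change was 1.17 ± 0.30 (adjusted p = 0.00766) in HG versus NG and 1.34 ± 0.30 (adjusted p = 0.00158) in si-FGF9 versus NG, and 1.05 and 1.41 with the GC trend removed. Against NG, the HG value fell short of the threshold without HG replicate 1 (0.99) and without HG replicate 2 (0.91). ACAT2 was at 52.15, 47.82 and 45.76 TPM in the NG libraries, at 63.91, 55.7 and 34.54 in those of HG, at 17.32, 15.14 and 23.86 in those of si-FGF9 and at 26.91, 27.96 and 42.22 in those of HG+OE-FGF9. ACAT2, the thiolase that starts the pathway, was lower in si-FGF9 than in NG (-1.35 ± 0.25, adjusted p = 0.000413) and not called in HG (0.04 ± 0.25). The si-FGF9 value was -0.71 with the GC trend removed and -0.35 under median-of-ratios scaling, and not called in either.

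IDI1 read 53.47, 47.98 and 43.55 TPM under NG, 14.16, 7.96 and 23.62 under HG, 16.08, 13.01 and 8.24 under si-FGF9 and 7.67, 5.98 and 15.14 under HG+OE-FGF9. IDI1, which makes the allylic isoprenoid unit, was lower than NG in all HG and si-FGF9 libraries, with log2 fold changes of -1.72 ± 0.38 (adjusted p = 0.00368) and -1.92 ± 0.38 (adjusted p = 0.000691), which were -0.75 and -0.43 with the GC trend removed and then not called. For SQLE the NG libraries gave 66.32, 51.49 and 44.64 TPM, those of HG 24.79, 15 and 29.2, those of si-FGF9 10.84, 12.53 and 10.21 and those of HG+OE-FGF9 12.36, 13.73 and 25.28. SQLE, the squalene epoxidase, fell by 1.23 ± 0.29 on the log2 scale in HG (adjusted p = 0.00465). In si-FGF9 it fell by 2.16 ± 0.29 (adjusted p = 4.06e-05). With the GC trend removed the values were -0.72, not called, and -1.28, called. Without HG replicate 2 its value in HG was -0.96 and not called. LSS was at 7.94, 5.82 and 5.45 TPM in the NG libraries, at 5.84, 5.76 and 8.5 in those of HG, at 1.69, 4.58 and 2.58 in those of si-FGF9 and at 1.77, 1.84 and 3.56 in those of HG+OE-FGF9. LSS, the cyclase that makes lanosterol, had a log2 fold change of 0.05 ± 0.29 in HG versus NG and was lower in all HG+OE-FGF9 libraries than in all HG libraries. Its log2 fold change there was -1.21 ± 0.29 (adjusted p = 0.025), and -1.26 with the GC trend removed. At 58.3% GC it was 1 of 12 GC-rich members, and the only one of them called in that comparison.

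The enzymes that turn lanosterol into cholesterol also split. CYP51A1 read 41.99, 35.69 and 34.37 TPM under NG, 14.61, 10.87 and 17.34 under HG, 8.31, 10.84 and 9.21 under si-FGF9 and 7.76, 7.85 and 11.55 under HG+OE-FGF9. CYP51A1, the lanosterol demethylase, was lower than NG in every library of the other groups, by -1.35 ± 0.21 in HG (adjusted p = 0.000929) and -1.88 ± 0.21 in si-FGF9 (adjusted p = 1.47e-05). For MSMO1 the NG libraries gave 148.1, 132.29 and 126.98 TPM, those of HG 41.54, 25.51 and 94.73, those of si-FGF9 41.4, 45.48 and 28.75 and those of HG+OE-FGF9 22.66, 22.25 and 36.94. MSMO1, the sterol methyl oxidase, had HG replicate 3 at 2.83 times the mean of the other HG libraries, and its log2 fold changes were -1.52 ± 0.38 (adjusted p = 0.00641) and -1.81 ± 0.38 (adjusted p = 0.000972). SC5D was at 11.85, 11.13 and 8.24 TPM in the NG libraries, at 4.41, 2.58 and 4.24 in those of HG, at 1.73, 1.62 and 1.1 in those of si-FGF9 and at 1.87, 1.75 and 2.82 in those of HG+OE-FGF9. SC5D, the sterol desaturase, was at most 4.41 TPM outside NG, with log2 fold changes of -1.28 ± 0.23 (adjusted p = 0.00151) and -2.19 ± 0.23 (adjusted p = 1.19e-05). The 3 transcripts are at 41.5%, 38.1% and 38.6% GC, and with the GC trend removed none of the 3 was called in either comparison, the HG values being -0.41, -0.42 and -0.19 and the si-FGF9 values -0.44, -0.17 and -0.56. HSD17B7 read 19.38, 15.58 and 15.03 TPM under NG, 7.52, 6.7 and 13.54 under HG, 7.71, 8.07 and 6.08 under si-FGF9 and 7.88, 5.23 and 6.23 under HG+OE-FGF9. HSD17B7, a sterol ketone reductase with a closely similar pseudogene that may share its reads, was called in si-FGF9 (-1.09 ± 0.25, adjusted p = 0.00166), and its value was 0.33 with the GC trend removed. For EBP the NG libraries gave 90.7, 87.59 and 89.54 TPM, those of HG 143.42, 165.07 and 138.18, those of si-FGF9 191, 168.18 and 193.63 and those of HG+OE-FGF9 150.77, 147.65 and 143.68. EBP, the sterol isomerase, was the second member to rise, and no library outside NG was below 138.18. Its log2 fold change was 1.04 ± 0.11 (adjusted p = 1.48e-05) in si-FGF9 and 0.73 ± 0.11 (adjusted p = 0.000991) in HG, under the fold threshold. Without the GC trend these were 1.49 and 0.89.

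Of the regulators, SREBF1 and SREBF2 encode the transcription factors. SREBF1 was at 18.48, 14.78 and 18.78 TPM in the NG libraries, at 12.02, 11.83 and 8.33 in those of HG, at 9.57, 6.56 and 7.32 in those of si-FGF9 and at 8.45, 7.53 and 9.27 in those of HG+OE-FGF9. All SREBF1 values outside NG were below all NG values. The log2 fold change was -1.06 ± 0.19 (adjusted p = 0.000384) in si-FGF9, called, and -0.66 ± 0.19 (adjusted p = 0.0155) in HG, not called, and these were -1.22 and -0.91 with the GC trend removed. Under median-of-ratios scaling the value in si-FGF9 was -0.11. SREBF2 read 15.06, 19.75 and 20.66 TPM under NG, 14.72, 15.02 and 12.18 under HG, 8.16, 8.57 and 10.74 under si-FGF9 and 8.17, 7.72 and 11.02 under HG+OE-FGF9. For SREBF2, too, NG was highest, with log2 fold changes of -0.37 ± 0.19 in HG (adjusted p = 0.123) and -0.94 ± 0.19 in si-FGF9 (adjusted p = 0.000816), neither called. Between HG+OE-FGF9 and HG the value was -0.60 ± 0.19 (adjusted p = 0.0692), with no overlap. The sign of the first pair turned under median-of-ratios scaling, to 0.11 and 0.02. For SCAP the NG libraries gave 8.11, 8.03 and 8.74 TPM, those of HG 9.88, 10.82 and 8.02, those of si-FGF9 7.84, 7.68 and 9 and those of HG+OE-FGF9 11.4, 11.46 and 10.76. SCAP, the escort of SREBP, stayed between 7.68 and 11.46 TPM, the narrowest range of the regulators, and was not called in any comparison of the TPM values. Its log2 fold change was 0.18 ± 0.16 for HG and -0.02 ± 0.16 for si-FGF9, both against NG, and 0.22 ± 0.16 for HG+OE-FGF9 against HG. Under median-of-ratios scaling the value in si-FGF9 was 0.90, below the fold threshold, and under quantile normalization it was 1.03 and SCAP was called higher.

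INSIG1 was at 158.22, 147.59 and 143.29 TPM in the NG libraries, at 23.66, 16.92 and 133.39 in those of HG, at 67.51, 74.58 and 44.15 in those of si-FGF9 and at 31.56, 31.27 and 48.18 in those of HG+OE-FGF9. INSIG1, the SREBP target, showed the widest spread within a group of all members, since HG replicate 3, at 133.39, was close to the NG libraries and 6.57 times the mean of the other HG libraries. The log2 fold change in HG was -1.95 ± 0.56 (adjusted p = 0.0135), and without HG replicate 3 it was -2.84 (adjusted p = 4.32e-05). Leaving out HG replicate 1, HG replicate 2 or any NG library in turn ended that call, and the fit of these 6 libraries alone gave the same value with an adjusted p of 0.0631. The call was also lost with the GC trend removed (-1.40) and under median-of-ratios scaling (-1.44). In si-FGF9 the value was -1.29 ± 0.56 (adjusted p = 0.0579), not called, and called in the fit of the 6 libraries (adjusted p = 0.000799), with all 3 libraries below all NG libraries, and it was -0.36 with the GC trend removed and -0.27 under median-of-ratios scaling. Between HG+OE-FGF9 and HG it was -0.07 ± 0.56, and 0.83 without HG replicate 3, and it turned to 0.071 under median-of-ratios scaling and to 0.018 with the GC trend removed, so that the sign rests on that library and on the scaling. INSIG2 read 42.95, 38.11 and 37.21 TPM under NG, 25.04, 15.05 and 14.5 under HG, 9.58, 9.47 and 4.05 under si-FGF9 and 2.64, 2.6 and 5.7 under HG+OE-FGF9. INSIG2 fell from NG to HG and again from HG to HG+OE-FGF9, and the NG, HG and HG+OE-FGF9 values did not overlap. The log2 fold change was -1.11 ± 0.33 (adjusted p = 0.0152) between HG and NG, -2.29 ± 0.33 (adjusted p = 7.03e-05) between si-FGF9 and NG and -2.07 ± 0.33 (adjusted p = 0.00333) in HG+OE-FGF9 versus HG, the largest change of any member in the last. INSIG2 is at 35.4% GC. Once the GC trend was removed the values were 0.01, -0.66 and -1.73, of which the last remained called. The call in HG was also lost without HG replicate 2 or 3 or any NG library. For STARD4 the NG libraries gave 47.44, 46.61 and 40.49 TPM, those of HG 5.76, 3.42 and 15.96, those of si-FGF9 3.84, 5.4 and 2.66 and those of HG+OE-FGF9 3.04, 3.25 and 5.59. STARD4, the carrier that moves cholesterol between membranes, had the largest fall of the 31 members on log2(TPM + 1) in both comparisons with NG. FASN was the exception, falling further in si-FGF9 with the GC trend removed. By mean TPM, ELOVL6 fell further in si-FGF9, 12.2-fold beside 11.3 for STARD4. The log2 fold change of STARD4 was -2.52 ± 0.41 (adjusted p = 0.00108) in HG and -3.24 ± 0.41 (adjusted p = 2.95e-05) in si-FGF9. With the GC trend removed it was -1.42 and -1.66, both still called. For HG+OE-FGF9 against HG it was -0.72 ± 0.41, with overlap.

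**Figure D4:**
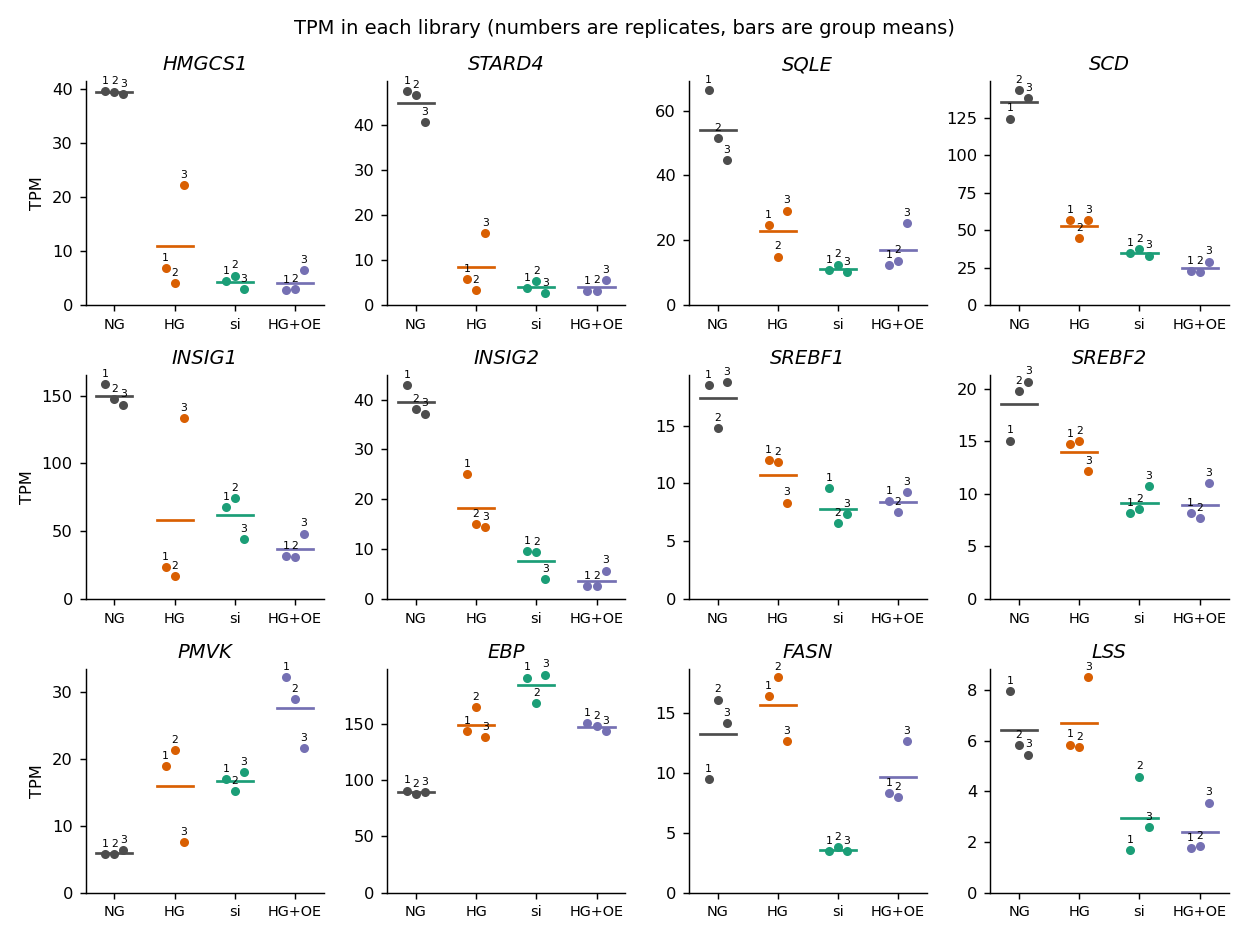
TPM (y axis, from 0) in each library for 12 members, by group on the x axis (si is si-FGF9, HG+OE is HG+OE-FGF9), with points numbered by replicate and bars at the mean of 3. HG replicate 3 lies apart from HG replicates 1 and 2 for HMGCS1, STARD4, INSIG1 and PMVK, and SCD and INSIG2 step down from NG to HG to HG+OE-FGF9 without overlap.

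Of the 7 fatty acid enzymes, 6 were called lower in si-FGF9 and 1 (SCD) in HG, both against NG, beside 42.2% and 22.7% of all genes tested. Under median-of-ratios scaling none of these calls held, and the difference between the groups in the number of calls was not tested. ACLY was at 108.07, 122.48 and 118.61 TPM in the NG libraries, at 73.31, 61.34 and 62.05 in those of HG, at 33.34, 35.88 and 38.37 in those of si-FGF9 and at 33.59, 33.85 and 58.54 in those of HG+OE-FGF9. ACLY, which makes cytosolic acetyl-CoA from citrate, had a log2 fold change of -1.67 ± 0.20 (adjusted p = 2.01e-05) in si-FGF9 and -0.82 ± 0.20 (adjusted p = 0.00515) in HG, the latter under the fold threshold, and stayed called in si-FGF9 with the GC trend removed (-1.14). ACACA read 11.54, 12.47 and 13.12 TPM under NG, 7.87, 7.18 and 6.49 under HG, 4.44, 4.91 and 3.82 under si-FGF9 and 6.56, 7.41 and 7.95 under HG+OE-FGF9. ACACA, the acetyl-CoA carboxylase, was called in si-FGF9 (-1.32 ± 0.16, adjusted p = 2.38e-05) and was -0.59 with the GC trend removed. For FASN the NG libraries gave 9.51, 16.13 and 14.18 TPM, those of HG 16.4, 18 and 12.64, those of si-FGF9 3.47, 3.82 and 3.51 and those of HG+OE-FGF9 8.35, 7.97 and 12.66. FASN, the fatty acid synthase, was between 3.47 and 3.82 TPM in all si-FGF9 libraries and at least 7.97 TPM in all others. Its log2 fold change was -1.61 ± 0.23 (adjusted p = 6.64e-05) against NG and -1.85 ± 0.23 (adjusted p = 0.00127) against HG. FASN has the highest GC content of the set, and with the GC trend removed the values were -1.93 and -1.82. Under median-of-ratios scaling the value against NG was -0.71, not called, and that against HG was -1.42, called. Between HG and NG the value was 0.24 ± 0.23, and -0.11 with the GC trend removed. SCD was at 124.25, 143.3 and 138.07 TPM in the NG libraries, at 56.71, 44.78 and 56.54 in those of HG, at 34.57, 37.24 and 32.99 in those of si-FGF9 and at 22.65, 22.38 and 29.08 in those of HG+OE-FGF9. SCD, the desaturase that makes oleate, was lowest in HG+OE-FGF9, and its values did not overlap between any pair of groups. The log2 fold change was -1.35 ± 0.15 (adjusted p = 0.000357) between HG and NG, -1.92 ± 0.15 (adjusted p = 4.63e-06) between si-FGF9 and NG and -1.06 ± 0.15 (adjusted p = 0.00161) between HG+OE-FGF9 and HG. GC correction made these -0.88, not called, -1.09 and -1.02.

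ELOVL6 read 15.28, 2.27 and 2.26 TPM under NG, 0.78, 2.75 and 1.05 under HG, 0.68, 0.6 and 0.34 under si-FGF9 and 0.74, 0.45 and 2.97 under HG+OE-FGF9. ELOVL6, the elongase of palmitate, was widely spread in NG, where replicate 1 stood at 6.75 times the mean of the other NG libraries. The call in si-FGF9 (-1.86 ± 0.57, adjusted p = 0.0114) was lost without that library, at -1.09, and also without any 1 of the si-FGF9 libraries (-1.77 to -1.93), in the fit of the 6 libraries alone, with no filter, and under the other scalings and the GC correction (-0.39). In NG replicate 1 FASN was the lowest of NG, and FADS2, at 1.99 TPM beside 6.03 and 5.42, was lower than the others by a factor of 2.88. For FADS1 the NG libraries gave 19.47, 21.63 and 20.11 TPM, those of HG 14.74, 11.84 and 12.67, those of si-FGF9 5.45, 6.48 and 7.55 and those of HG+OE-FGF9 7.1, 7.38 and 12.47. FADS1, a desaturase of polyunsaturated fatty acids, was called in si-FGF9 (-1.52 ± 0.21, adjusted p = 4.99e-05) and was -0.88 with the GC trend removed. FADS1 lies on chromosome 11 on the minus strand and overlaps FADS2 on the plus strand, and since use of strand in counting is not given in the sources used here, reads from the stretch they share cannot be assigned to 1 of the pair. FADS2 ranged from 1.99 to 6.03 TPM and was not called in any comparison.

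**Figure D5:**
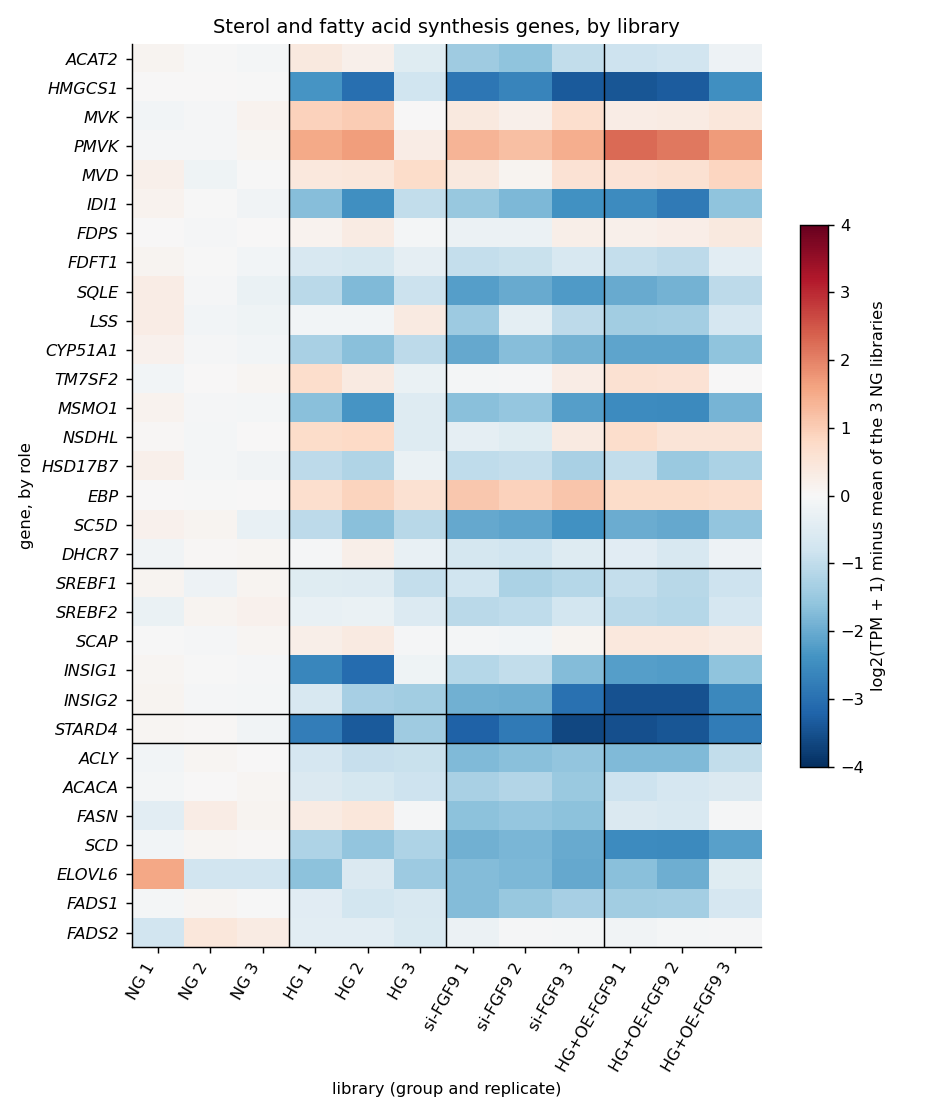
Heat map of the 31 members (rows, by role) in the 12 libraries (columns), coloured by log2(TPM + 1) minus the mean of the 3 NG libraries, blue where lower and red where higher. STARD4 and HMGCS1 are blue in all 9 libraries outside NG, INSIG2 is deepest in HG+OE-FGF9, PMVK and EBP are red in those 9, and INSIG1 is near white in HG replicate 3.

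Added up, the 18 sterol enzymes held 761 ± 48.4 TPM (SD, n = 3) under NG, 622 ± 17 under HG, 530 ± 38.5 under si-FGF9 and 557 ± 53 under HG+OE-FGF9. The 7 fatty acid enzymes held 309 ± 17.3, 158 ± 12.6, 89.5 ± 3.87 and 97.8 ± 25.8 TPM. The sterol enzyme sums rest on a few abundant members, since FDPS, at 97.84 to 151.19 TPM, and EBP did not fall. Not called in any of the 3 comparisons were 10 members. These were MVK (the mevalonate kinase), MVD (the mevalonate decarboxylase), FDPS and FDFT1 (which make farnesyl diphosphate and squalene), TM7SF2, NSDHL and DHCR7 of the later sterol steps, SREBF2, SCAP and FADS2. MVD was higher than NG in all HG libraries (26.05, 26.86 and 32.77 TPM beside 22.24, 17.01 and 19.3), with a log2 fold change of 0.53 ± 0.17 (adjusted p = 0.0238), below the fold threshold. FDFT1 was lower in all HG and si-FGF9 libraries than in all NG libraries, at -0.56 ± 0.18 (adjusted p = 0.0222) and -0.84 ± 0.18 (adjusted p = 0.00125), and the latter was 0.19 under median-of-ratios scaling. NSDHL was at 23.77, 24.87 and 9.53 TPM in HG and 13.25 to 14.63 in NG, so that HG replicate 3 lay on the other side of NG from the other HG libraries. TM7SF2 ranged from 1.15 to 3.21 TPM, MVK from 5.64 to 13.44 and DHCR7 from 7.45 to 16.47.

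A further pair of comparisons set the groups side by side in other ways. In si-FGF9 versus HG, 4 members were called lower (ACAT2, LSS, INSIG2 and FASN) and 0 higher, beside 9.67% and 1.4% of all genes tested, and at an unadjusted limma p under 0.05 the counts were 13 and 1, beside 39.2% and 7.02%. After GC correction 2 were lower (ACAT2 and FASN), beside 2.52% of all genes, and under median-of-ratios scaling 1 (FASN), beside 2.29%, with 0 higher in both, beside 3.34% and 5.7%. Without HG replicate 3, INSIG1 was higher in si-FGF9, and without HG replicate 2, 8 members were lower. LSS was not called without si-FGF9 replicate 1. Without si-FGF9 replicate 3, LSS and INSIG2 were not called and FADS1 was called lower. The counts thus rest on single libraries of both groups. The 2 groups differ in glucose as well as in the siRNA. In HG+OE-FGF9 versus NG, 14 members were called lower and 1 (PMVK) higher, beside 32.7% and 7.01% of all genes. With the GC trend removed the counts were 10 and 1, beside 11.8% and 11.3%, and under median-of-ratios scaling 9 and 4, beside 17.6% and 16.9%. HMGCS1, IDI1, SQLE, INSIG2, STARD4 and SCD were lower and PMVK higher under all 3 scalings. PMVK had a log2 fold change of 2.02 ± 0.30 (adjusted p = 0.000146) there, SCD of -2.41 ± 0.15 (adjusted p = 1.63e-06) and INSIG2 of -3.18 ± 0.33 (adjusted p = 3.13e-05).

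Of 58 other genes around the pathway, 52 passed the minimum level. HG had 23 of the 52 lower than NG and 0 higher, si-FGF9 had 34 and 0, and HG+OE-FGF9 had 0 lower than HG and 1 higher. Of all genes tested, 22.7%, 42.2% and 2.67% were lower in these comparisons and 1.65%, 5.36% and 2.94% higher. At an unadjusted limma p under 0.05, 33 were lower and 3 higher in HG, beside 45% and 10.8% of all genes, 44 and 2 in si-FGF9, beside 59.1% and 12.3%, and 10 and 3 under HG+OE-FGF9, beside 16.9% and 11.3%. With the GC trend removed the lower and higher counts were 5 and 0, 11 and 3, and 0 and 1, where the shares of all genes were 3.06% and 3.78%, 12% and 12.3%, and 2.18% and 3.03%. By list, the lower calls in HG and si-FGF9 were 5 and 8 of 8 genes of SREBP processing and turnover, 11 and 13 of 20 of fatty acid supply, 5 and 8 of 16 of cholesterol transport, esterification and LXR, and 2 and 5 of 8 of the isoprenoid branch, beside 22.7% and 42.2% of all genes. With the GC trend removed these lists had 1 and 1, 1 and 5, 3 and 5, and 0 and 0 lower calls, beside 3.06% and 12%. ABCA1, the pump that exports cholesterol to lipoproteins, had a mean of 36.9 TPM in NG, 4.31 in HG and 2.82 in si-FGF9, which is a log2 fold change of -2.92 (adjusted p = 0.000193) and of -3.33 (adjusted p = 7.02e-06), and of -2.33 and -2.35 with the GC trend removed. NPC1, which lets cholesterol out of the lysosome, was at -1.41 (adjusted p = 0.00727) and -2.55 (adjusted p = 6.18e-05), and stayed called with the trend removed. Under median-of-ratios scaling NPC1 was at -0.902 in HG, not called, and at -1.545 in si-FGF9, called. Its HG libraries were at 27.34, 20.74 and 62.3 TPM. PAQR3, an anchor of SCAP in the Golgi, was at -2.22 (adjusted p = 0.00141) and -3.25 (adjusted p = 2.24e-05), and ACSL4, which activates arachidonate, at -2.42 (adjusted p = 0.00142) and -3.04 (adjusted p = 5.6e-05), and both stayed called. MBTPS1, the protease that first cuts SREBP, was at -1.49 (adjusted p = 0.000235) in si-FGF9 and not called with the trend removed. DHDDS, a subunit of the enzyme that makes dolichol, was the 1 gene above its HG level under HG+OE-FGF9, at 1.30 (adjusted p = 0.0185).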

How the data were processed

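RNA of 12 HK2 libraries, 3 in each of 4 groups taken from the sample labels, was sequenced by the authors, who deposited TPM per Ensembl gene, given to 2 decimals. The submitters' processing notes name Bowtie 0.12.2 and a mouse genome build, although the identifiers are human, so that the build and counting of these values are uncertain. TPM keep no depth, so that only the spread of the libraries shows precision. The 14639 genes that reached 1 TPM in at least 3 libraries were tested on log2(TPM + 1) by limma 3.58.1 (R 4.3.3), with a variance trend and group means fitted over all 12 libraries. Adjusted p are Benjamini-Hochberg over all genes tested. GC content came from the longest transcript in GENCODE 29 and was removed as a spline with 5 degrees of freedom (96.9% of genes had a value). The fit was tested on simulated data. Genes named are all members, and up to 3 genes called per other list and comparison with the largest change and a mean of at least 5 TPM, of which some are described. The members and lists were chosen with earlier results of these data known. Alternatives were other scalings, filters, a replicate block and each library left out.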

Additional observations from a re-analysis of the deposited data

How the results depend on the processing

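In both comparisons with NG, the counts of members moved most with the scaling and the GC correction, and in HG+OE-FGF9 versus HG with HG replicate 2 left out. In HG versus NG, the 10 lower and 1 higher became 4 and 4 under median-of-ratios scaling, 6 and 3 under quantile normalization, 2 and 1 with the GC trend removed (2 and 1 also with the replicate block added), and 2 and 0 with GC content and length both removed, an alternative chosen after seeing the data. The fit of the 6 libraries alone gave 8 and 0, and leaving out 1 library gave 7 to 10 lower and 0 to 1 higher. In si-FGF9 versus NG, the 17 lower and 2 higher became 5 and 4, 10 and 5, 7 and 2 (7 and 2 with the block), and 4 and 1, in the same order, and 16 to 17 lower and 1 to 2 higher with 1 library left out. In HG+OE-FGF9 versus HG, the 3 lower and 0 higher ranged from 3 to 6 and 0 to 1 with 1 library left out, the highest of both without HG replicate 2. The replicate block alone gave 10 and 1, 16 and 2, and 3 and 0. Its only lost call was ELOVL6 in si-FGF9. Same-numbered libraries had correlations of their deviations of 0.07, 0.09 and -0.16 in HG and NG. Over all comparisons such values ranged from -0.44 (si-FGF9 and HG) to 0.25 (HG+OE-FGF9 and HG). Deviations within a group cancel out, so that these values cannot decide whether same-numbered libraries belong together, and the labels do not say. No filter, a pseudocount of 0.1 and an adjusted p under 0.05 left the counts within 1.5 times.

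Signs turned mostly for members that were not called. Of the 31, 2 turned in HG versus NG under median-of-ratios scaling, 3 under quantile normalization and 6 with the GC trend removed, in si-FGF9 versus NG 7, 7 and 5, and in HG+OE-FGF9 versus HG 2, 0 and 2. The called members among them were INSIG2 in HG and HSD17B7 in si-FGF9, both with the GC trend removed. In HG versus NG, SREBF2 was 0.11 under median-of-ratios scaling and 0.13 under quantile normalization, SCAP was -0.056 with the GC trend removed, with or without the block, and INSIG2 was 0.006 with it removed, with or without the block, and 0.017 with length too, LSS was -0.012 and FASN -0.113 with it removed, with or without the block, and with 1 library left out ACAT2 was -0.141 to 0.293 and LSS -0.108 to 0.197. In si-FGF9 versus NG, HSD17B7 was 0.33 with the GC trend removed, with or without the block, and 0.39 with length too, FDFT1 was 0.185 under median-of-ratios scaling and 0.029 with GC and length removed, SREBF2 was 0.022 and 0.013 under the 2 scalings, and SCAP was 0.90 and 1.03 under them, 0.21 with GC and length removed, and -0.084 to 0.018 with 1 library left out. In HG+OE-FGF9 versus HG, INSIG1 was 0.071 under median-of-ratios scaling, 0.018 with the GC trend removed, with or without the block, 0.047 with length too, and -0.63 to 0.83 with 1 library left out. Without NG replicate 1 and without si-FGF9 replicate 3, SREBF2 was called in si-FGF9 versus NG, at -1.07 and -1.05. Calls of HSD17B7, EBP and SREBF1 in si-FGF9 were each lost without 1 or more libraries (lowest sizes 0.98, 1.00 and 0.96). The causes were not tested. The unknown depth limits what can be said of low values.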
